A study of Mus musculus with 32 samples.

Results

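The heat shock proteins and chaperones followed here are 10 genes of the 21886 in the deposited count table, found by their symbols. They comprise 6 cytosolic chaperones (Hspa1a, Hspa1b, Hspa8, Hsph1, Dnajb1 and Hsp90aa1), 2 mitochondrial ones (Hspd1 and Hspe1) and 2 of the endoplasmic reticulum, or ER (Hspa5 and Hsp90b1). Of these, 8 passed the filter on low counts, as did 11772 genes of the table, and Hspa1a and Hspa1b did not.

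The samples were mouse presomitic mesoderm (PSM), the tissue that buds off somites under the control of the segmentation clock, made in culture from epiblast stem cells. All cells came from the AES0204-based reporter line, in which luciferase reports Hes7, a repressor at the core of the clock, and the series set out to find components of that clock. In each of 2 independent time courses, named Ex5 and Ex4, 16 dishes were frozen one after another, and each dish gave 1 library of polyadenylated RNA. The dishes of Ex5 were labelled 165 to 425 min and those of Ex4 155 to 405 min. Every dish, in Ex5 and in Ex4, had received CDMi medium with SB431542 (an inhibitor of TGF-β receptors), LDN193189 (an inhibitor of BMP receptors), CHIR99021 (an inhibitor of GSK3) and bFGF, with less CHIR99021 in the last medium. None of the labels names a heat treatment or another stress. With 1 library per time and experiment, p-values measure the spread of libraries around fitted curves, and they describe cells of 1 line.

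Chaperones bind unfolded or newly made proteins and help them fold. In the cytosol, HSP70 proteins, with their DNAJ partners and nucleotide exchange factors, and HSP90 proteins do this work, and heat shock factor 1 (HSF1) raises their transcription through heat shock elements, inverted repeats of GAA. The mitochondrial matrix uses the HSP60 and HSP10 chaperonin, whose genes are also HSF1 targets. In the ER lumen, BiP and GRP94 fold secreted and membrane proteins, and the unfolded protein response raises their genes through the ER stress element, bound by NF-Y and ATF6.

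RefSeq promoter windows on GRCm38.p6, from 250 bases before to 50 after the start site, were found for 8 of the 10 members. Those of Hspa1a and Hspa1b are shown because these genes are near-identical copies, and capitals mark the 4 of 300 bases at which they differ. Those of Hspa5 and Hsp90b1 are shown because these genes ran most closely together, with no base marked. Binding to these windows was not measured.
Hspa1a (chr17:34972107-34972406, minus strand): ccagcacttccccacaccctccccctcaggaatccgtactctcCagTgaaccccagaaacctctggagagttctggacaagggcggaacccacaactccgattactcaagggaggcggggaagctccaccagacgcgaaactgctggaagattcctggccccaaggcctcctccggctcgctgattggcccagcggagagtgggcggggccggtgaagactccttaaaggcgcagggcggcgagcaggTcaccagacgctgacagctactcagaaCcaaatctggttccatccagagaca
Hspa1b (chr17:34959189-34959488, minus strand): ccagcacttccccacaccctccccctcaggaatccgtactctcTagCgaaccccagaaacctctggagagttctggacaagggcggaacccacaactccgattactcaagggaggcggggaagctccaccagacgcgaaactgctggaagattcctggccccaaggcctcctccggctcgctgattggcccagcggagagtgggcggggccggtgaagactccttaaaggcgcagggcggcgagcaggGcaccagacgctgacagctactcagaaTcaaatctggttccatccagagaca
Hspa5 (chr2:34771840-34772139, plus strand): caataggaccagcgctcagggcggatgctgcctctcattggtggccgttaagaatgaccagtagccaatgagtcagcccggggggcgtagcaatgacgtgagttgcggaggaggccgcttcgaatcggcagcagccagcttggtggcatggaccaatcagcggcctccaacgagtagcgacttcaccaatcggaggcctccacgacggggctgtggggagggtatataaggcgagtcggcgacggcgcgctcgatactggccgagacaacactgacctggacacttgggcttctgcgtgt
Hsp90b1 (chr10:86705395-86705694, minus strand): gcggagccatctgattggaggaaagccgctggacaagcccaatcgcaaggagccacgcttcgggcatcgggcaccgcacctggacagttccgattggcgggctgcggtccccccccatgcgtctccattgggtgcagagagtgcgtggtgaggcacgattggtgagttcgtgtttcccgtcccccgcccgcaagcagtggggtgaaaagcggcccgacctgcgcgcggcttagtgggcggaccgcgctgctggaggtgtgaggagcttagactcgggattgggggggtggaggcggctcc

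Library totals were 16.1 to 28.6 M counts in Ex5 (median 22.2 M) and 19.3 to 29.5 M counts in Ex4 (median 24.1 M). The cells carried PSM markers in both experiments. Tbx6 averaged 565 CPM (counts scaled to library size) in Ex5 and 440 CPM in Ex4, and Dll1 averaged 983 CPM in Ex5 and 722 CPM in Ex4. Of 11 PSM markers tested, 8 were higher in Ex5 and 3 were lower, where 27.4% of all genes were higher and 27.7% lower. The 3 pluripotency markers tested were lower in Ex5, among them Pou5f1 with 40.2 CPM in Ex5 and 55.6 CPM in Ex4, and the untested Nanog averaged 0.238 CPM in Ex5 and 0.333 CPM in Ex4. Foxf1, Hand1, Hand2 and Gata4 (lateral mesoderm) and Sox17 and Gata6 (endoderm) stayed under 1 CPM in every library, and Foxa2 (endoderm) averaged 1.03 CPM in Ex5 and 1.09 CPM in Ex4. Of 3 neural markers tested, Sox1 (1.63 CPM in Ex5 and 2.77 CPM in Ex4) and Pou3f2 (0.552 CPM in Ex5 and 1.26 CPM in Ex4) were lower in Ex5, and Pax6 averaged 11.5 CPM in Ex5 and 11.8 CPM in Ex4. Both somite markers tested were lower in Ex5, Meox1 with 1.45 CPM in Ex5 and 1.94 CPM in Ex4 and Pax3 with 0.688 CPM in Ex5 and 1.35 CPM in Ex4. The part of these marker differences in the chaperone values was not tested, and in bulk RNA a change in the mix of cells cannot be told apart from a change within cells.

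**Figure D1:**
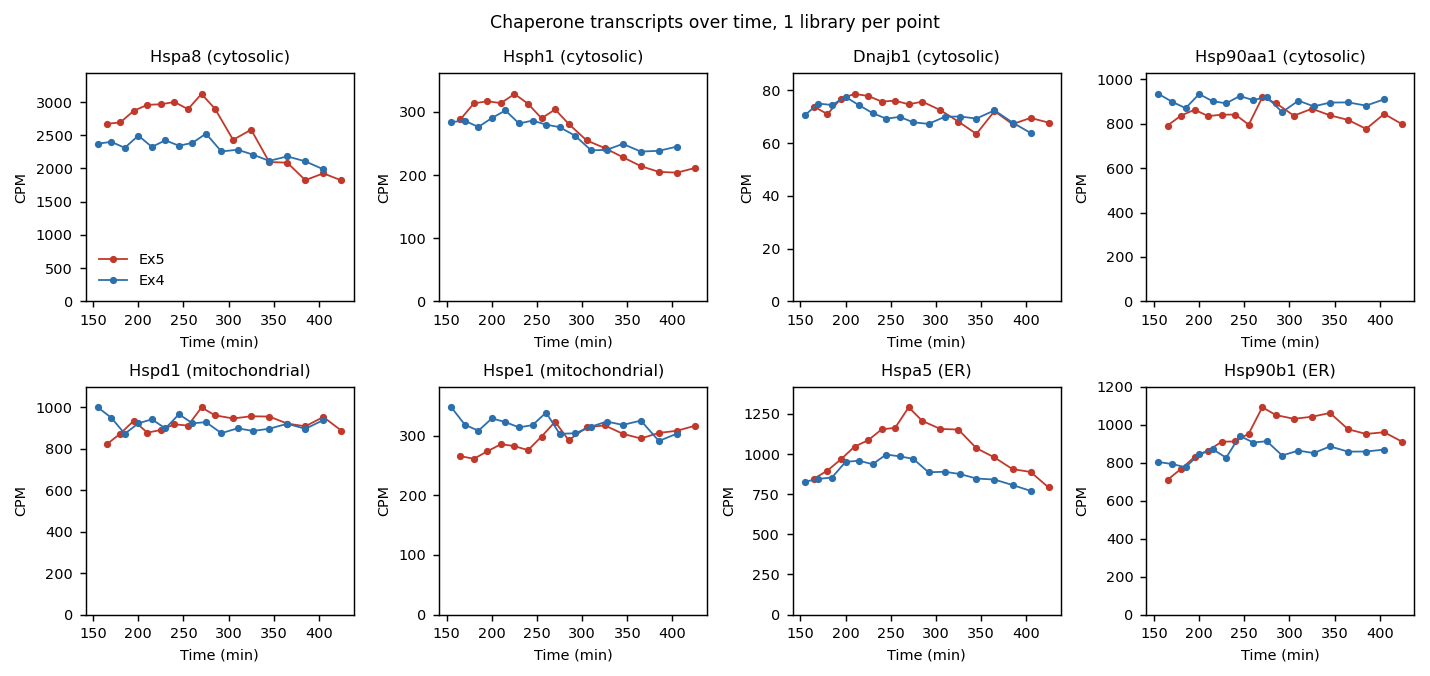
Counts scaled to library size (CPM, linear axis from 0) of the 8 members past the filter against the labelled time, with Ex5 and Ex4 in separate colours and 1 point per library. Hspa5 and Hsp90b1 stood highest near the middle of Ex5, where both were highest at 270 min, and Hspa8 and Hsph1 ended below where they began.

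The stress-inducible HSP70 genes Hspa1a (chr17:34969190-34972156, minus strand) and Hspa1b (chr17:34956436-34959238, minus strand) were close to unread. Hspa1a had 6 counts among all 728.3 M, in 5 of 32 libraries and never more than 2 in one. Hspa1b had 4 counts, in 4 of 32 libraries and never more than 1 in one. The level in a typical library, a median of 0 CPM in Ex5 and 0 CPM in Ex4 for either gene, lay under the limit of 3 counts that a count of 0 allows, which covers counting error only. The genes are near-identical copies: 60.3% of the 50-base windows of the Hspa1a transcript occur in another gene, 58.8% in Hspa1b, and 62.3% of those of Hspa1b occur in Hspa1a. No label or header says how reads that map to both copies were counted. The remaining windows of each transcript occur in no other gene. The part of shared sequence in these low counts was not tested.

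Per kilobase of transcript, Hspa8 stood far above the other members, and Dnajb1 stood lowest of the 8 past the filter. Hspa8 averaged 1070 ± 191 CPM per kb in Ex5 and 959 ± 61.3 CPM per kb in Ex4 (SD over 16 time points each). The next members in Ex5 were Hspe1 at 381 ± 24.9, Hspd1 at 380 ± 18, Hsp90b1 at 333 ± 38.2, Hspa5 at 282 ± 39.6 and Hsp90aa1 at 255 ± 11.4 CPM per kb. In Ex4 the order was Hspe1 at 410 ± 18.3, Hspd1 at 380 ± 14.3, Hsp90b1 at 303 ± 15.6, Hsp90aa1 at 274 ± 6.86 and Hspa5 at 243 ± 18.7 CPM per kb. The HSP110 gene Hsph1 followed with 70.8 ± 12 CPM per kb in Ex5 and 70.3 ± 5.84 CPM per kb in Ex4, and Dnajb1 with 24.2 ± 1.46 CPM per kb in Ex5 and 23.6 ± 1.1 CPM per kb in Ex4. In Ex5, Hspe1 and Hspd1 lay within their SDs of each other. Hspa5 and Hsp90aa1 lay within the SD of Hspa5 but not within that of Hsp90aa1. The remaining neighbours in the order were farther apart than either SD. Copies elsewhere in the genome bear on these levels, since 73.2% of the 50-base windows of Hspa8, 58.5% of Hsp90aa1, 44.8% of Hspd1 and 36.1% of Hspe1 also occur in other genes, such as Gm15459 for Hspa8 and Gm12346 for Hsp90aa1. For Hsph1 and Hspa5 that share was 0, for Dnajb1 0.407% and for Hsp90b1 3.71%.

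Over time, the cytosolic members Hspa8, Hsph1 and Dnajb1 fell, the ER member Hsp90b1 rose, and the other 4 did not pass the test. Trends are the mean of the Ex5 and Ex4 slopes in log2 per 100 min, from edgeR's quasi-likelihood test with Benjamini-Hochberg adjustment over all 11772 genes at 0.05. Among all genes tested, 26.6% fell and 26.8% rose, and no more is read from a count of 3 falling and 1 rising among 8 members.

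Hspa8 (chr9:40800984-40810087, plus strand) encodes HSC70, the HSP70 protein that cells make without stress. It ranged over 1820, 2683 and 3122 CPM in Ex5 and over 1987, 2318 and 2524 CPM in Ex4 (lowest, median and highest of 16 libraries each). Its highest library was that of 270 min in Ex5 and that of 275 min in Ex4, and its lowest was the last in both, 425 min in Ex5 and 405 min in Ex4. In Ex5 it read 2672 to 3122 CPM in the libraries up to 285 min, and then 2431 CPM at 305 min, 2087 CPM at 365 min and 1820 CPM at 425 min. Its trend was -0.20 ± 0.0256 log2 per 100 min (SE; adjusted p = 2.35e-08).

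Hsph1 (chr5:149614287-149636376, minus strand) encodes HSP110, a nucleotide exchange factor for HSP70. Its values were 203.8, 284.6 and 328.5 CPM in Ex5 and 237.2, 276.1 and 302.4 CPM in Ex4 (lowest, median, highest). It was highest at 225 min in Ex5 and at 215 min in Ex4. The libraries from 345 min onward read 228.3 CPM or less in Ex5 and 249.3 CPM or less in Ex4. Hsph1 had the steepest trend of the 8, -0.23 ± 0.0182 log2 per 100 min (adjusted p = 5.89e-13).

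Dnajb1 (chr8:83608193-83612653, plus strand) encodes HSP40, the J-domain partner that hands clients to HSP70 and is itself heat-inducible. It spanned 63.46, 73.17 and 78.62 CPM in Ex5 and 63.83, 70.02 and 77.5 CPM in Ex4 (lowest, median, highest), and the 2 ranges overlapped almost wholly. Its trend was shallower, -0.07 ± 0.0142 log2 per 100 min (adjusted p = 3.71e-05).

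Hsp90aa1 (chr12:110690605-110702728, minus strand), the inducible cytosolic HSP90, kept a narrow range of 777.1, 837.6 and 919.3 CPM in Ex5 and 852.6, 900.7 and 934.6 CPM in Ex4 (lowest, median, highest). Its trend of -0.02 ± 0.0136 log2 per 100 min did not pass the test (adjusted p = 0.309).

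The mitochondrial pair had no shared trend that passed the test. Hspd1 (chr1:55077835-55088243, minus strand), the HSP60 chaperonin ring, read 822.1, 920.5 and 1000 CPM in Ex5 and 872.9, 922.4 and 1001 CPM in Ex4 (lowest, median, highest), with a trend of -0.0011 ± 0.0146 log2 per 100 min (adjusted p = 0.953). Hspe1 (chr1:55088132-55091307, plus strand), the HSP10 lid of that ring, read 261.3, 297 and 323.5 CPM in Ex5 and 291.2, 318 and 347.8 CPM in Ex4, with a trend of 0.02 ± 0.0151 (adjusted p = 0.25). Hspd1 was lowest in the first library of Ex5 and highest in the first library of Ex4. The same first library of Ex4, at 155 min, was the highest of Ex4 for Hspe1 and Hsp90aa1 too.

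The ER members moved up and then down. Hspa5 (chr2:34771970-34777547, plus strand) encodes BiP, the HSP70 of the ER and the sensor-binding chaperone of the unfolded protein response. In Ex5 it read 846.4 CPM at 165 min, 1047 CPM at 210 min, 1292 CPM at 270 min, 1037 CPM at 345 min and 792 CPM at 425 min. In Ex4 it read 827.7 CPM at 155 min, 951.7 CPM at 200 min, 997.4 CPM at 245 min, 875.4 CPM at 327 min and 771.1 CPM at 405 min. Both courses thus had a maximum inside the sampled window and their lowest value in the last library. Its linear trend was -0.08 ± 0.0349 log2 per 100 min and did not pass the test (adjusted p = 0.067).

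Hsp90b1 (chr10:86690209-86705509, minus strand) encodes GRP94, the HSP90 of the ER, which folds receptors, integrins and secreted factors. In Ex5 it read 710.6 CPM at 165 min, 864.1 CPM at 210 min, 1093 CPM at 270 min, 1063 CPM at 345 min and 910.9 CPM at 425 min. In Ex4 it read 804.1 CPM at 155 min, 845.7 CPM at 200 min, 942 CPM at 245 min, 851.4 CPM at 327 min and 870 CPM at 405 min. It differed from Hspa5 in ending above its start in both courses, and its trend was 0.07 ± 0.0249 log2 per 100 min (adjusted p = 0.0133). That call was lost without the first library of Ex5 (0.05, adjusted p = 0.0707) and in Ex4 alone (0.02, adjusted p = 0.434).

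A squared-time term shared by both experiments measured this bend, as curvature in log2 per (100 min) squared. A negative value means a course that curves downward, and its top need not lie mid-course or inside the sampled window. The fitted top of Hspa8 was at 189 min in Ex5 and 239 min in Ex4, and that of Hsph1 at -10.2 min in Ex5 and 127 min in Ex4. All 8 coefficients were below 0, where the median over all genes was -0.00097. Those of Hspa5, Hsp90b1 and Hspa8 passed the test. Among all genes tested, 9.74% passed it with a negative and 7.53% with a positive curvature. Hspa5 had -0.25 ± 0.0217 (SE; edgeR's quasi-likelihood test, adjusted p = 2.51e-10), Hsp90b1 -0.16 ± 0.0216 (adjusted p = 5.11e-06) and Hspa8 -0.14 ± 0.0257 (adjusted p = 0.00027). All 3 calls held without any 1 library, with the curvature of Hspa5 between -0.275 and -0.24, of Hsp90b1 between -0.18 and -0.14 and of Hspa8 between -0.15 and -0.12. In Ex4 alone, the curvature of Hspa5 passed the test (-0.15, adjusted p = 0.000595), while those of Hspa8 (-0.07, adjusted p = 0.0752) and Hsp90b1 (-0.07, adjusted p = 0.103) did not. The other 5 members had values of -0.05 to -0.00076, and of these Hsph1 came nearest the threshold (adjusted p = 0.134).

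**Figure D2:**
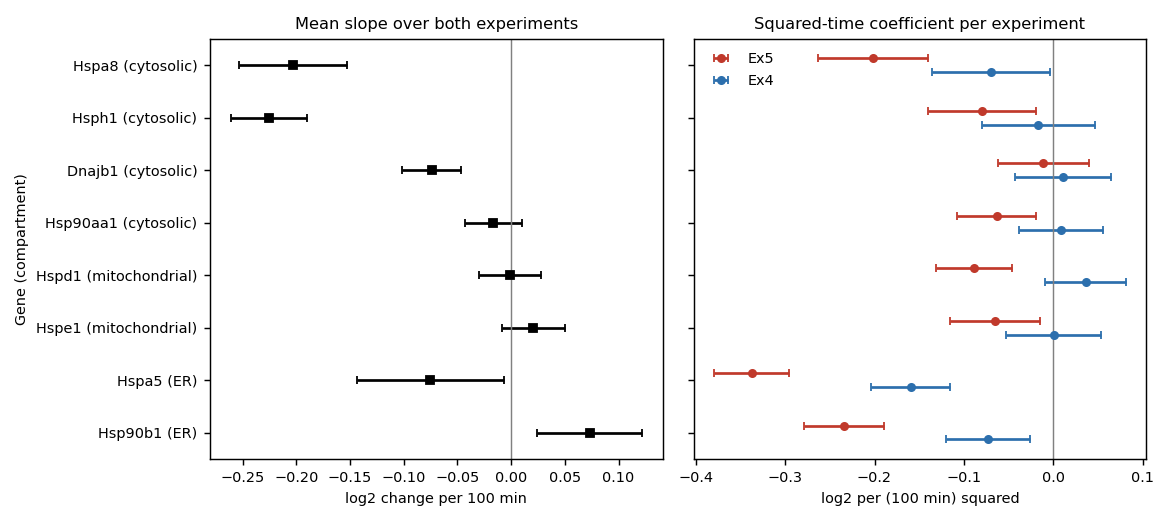
Mean slope over both experiments (left, log2 per 100 min) and squared-time coefficient of Ex5 and of Ex4 (right, log2 per (100 min) squared) of the 8 members, with bars for approximate 95% intervals. Hsph1 (-0.23) and Hspa8 (-0.20) had the most negative mean slopes, and Hspa5 the most negative squared-time coefficient in Ex5 (-0.34) and in Ex4 (-0.16).

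The bends of the ER members were deeper in Ex5. When the squared term was fitted per experiment, a test chosen after the data had been seen, Hspa5 had a curvature of -0.34 ± 0.0213 in Ex5 and -0.16 ± 0.0226 in Ex4, a difference of -0.18 ± 0.0304 (edgeR, adjusted p = 0.00111). Hsp90b1 had -0.23 ± 0.0228 in Ex5 and -0.07 ± 0.0241 in Ex4, where its own bend did not pass the test (adjusted p = 0.0537), a difference of -0.16 ± 0.0325 (adjusted p = 0.00525). For Hspd1 the values were -0.09 ± 0.0217 in Ex5 and 0.04 ± 0.0229 in Ex4, a difference of -0.12 ± 0.031 (adjusted p = 0.0209). The difference of Hspa8, -0.13 ± 0.0451, did not pass the test (adjusted p = 0.101). Among all genes, 1.1% had a curvature lower in Ex5 by this test. The fitted curve of Hspa5 topped at 284 min in Ex5 and 254 min in Ex4, and that of Hsp90b1 at 319 min in Ex5 and 299 min in Ex4.

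One library bears on many of these maxima: that of 270 min in Ex5 was the highest of its course for 6 of the 8 members (Hspa8, Hsp90aa1, Hspd1, Hspe1, Hspa5 and Hsp90b1). The 8 members together took 0.8% of its counts, the largest share of any library, against 0.57 to 0.8% over Ex5 and 0.614 to 0.695% over Ex4. Its total of 22.73 M counts was near the median of Ex5. Without it, the level in Ex5 minus Ex4 was still 0.21 log2 for Hspa5 (adjusted p = 0.000404) and 0.14 log2 for Hspa8 (adjusted p = 0.00101). With the log2 library total as a covariate, added after the data had been seen, the curvature was -0.24 for Hspa5 (adjusted p = 1.81e-09), -0.15 for Hsp90b1 (adjusted p = 2.28e-05) and -0.12 for Hspa8 (adjusted p = 0.00124).

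The slopes of 3 members differed between the experiments. Among all genes, 9.06% had a lower and 7.03% a higher slope in Ex5. Hspa8 changed by -0.30 log2 per 100 min in Ex5 and by -0.11 in Ex4, a difference of -0.19 ± 0.0478 (SE; edgeR, adjusted p = 0.00598). Hsph1 changed by -0.30 in Ex5 and by -0.15 in Ex4, a difference of -0.15 ± 0.0337 (adjusted p = 0.00177). Hspe1 changed by 0.09 in Ex5 and by -0.04 in Ex4, a difference of 0.13 ± 0.0283 (adjusted p = 0.00155). These 3 calls held without any 1 library. The slope differences of the remaining members, -0.02 to 0.08, did not pass the test.

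At 285 min, the middle of the sampled window, the fitted levels of 4 members were higher in Ex5 and those of 2 were lower. Among all genes, 27.4% were higher and 27.7% lower, so the experiments differed broadly. Hspa5 was 0.23 ± 0.0496 log2 higher in Ex5, 1.17-fold (SE; edgeR, adjusted p = 0.000164), Hspa8 0.16 ± 0.0366 (1.11-fold, adjusted p = 0.000455) and Hsp90b1 0.125 ± 0.0357 (1.09-fold, adjusted p = 0.00317). Lower in Ex5 were Hsp90aa1 with -0.10 ± 0.0197 (0.931-fold, adjusted p = 3.16e-05) and Hspe1 with -0.10 ± 0.022 (0.931-fold, adjusted p = 0.000121). The fourth higher member, Dnajb1, at 0.05 ± 0.0205 (adjusted p = 0.046), lost its call in 21 of 32 fits without 1 library. Hspd1 at 0.0034 (adjusted p = 0.907) and Hsph1 at 0.02 (adjusted p = 0.53) did not pass the test. These fits hold no squared term, so for the bent courses of Hspa5, Hsp90b1 and Hspa8 they can miss the values read near 285 min. Hspa5 read 1207 CPM at 285 min in Ex5, and 970.5 CPM at 275 min and 886.7 CPM at 292 min in Ex4. At the same minutes Hsp90b1 read 1052 CPM in Ex5, and 914 and 838.6 CPM in Ex4. Hspa8 read 2898 CPM in Ex5, and 2524 and 2256 CPM in Ex4.

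The level difference depended on when it was read. At the 4 minutes that both experiments sampled, 345, 365, 385 and 405 min, Hsph1 was lower in Ex5 (-0.19 log2, edgeR's adjusted p = 0.00598), and Hspa8 had a difference of -0.09 that did not pass the test (adjusted p = 0.218). Nor did those of Hspe1 (-0.04, adjusted p = 0.608) and Dnajb1 (-0.01, adjusted p = 0.893). At 385 min, for example, Hsph1 read 205 CPM in Ex5 and 238.4 CPM in Ex4. Hspa8 was farthest apart at 385 min, with 1824 CPM in Ex5 and 2107 CPM in Ex4. It read 2097 CPM in Ex5 and 2114 CPM in Ex4 at 345 min, and 2087 and 2182 CPM at 365 min. At 405 min it read 1926 CPM in Ex5 and 1987 CPM in Ex4. Hspa5 stayed higher in Ex5 at these minutes (0.215, adjusted p = 0.00372), as did Hsp90b1 (0.18, adjusted p = 0.0107), and Hsp90aa1 stayed lower (-0.135, adjusted p = 0.0348).

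No member passed the test for a rhythm in the phase of Hes7. The period fitted to Hes7 was 135 min (interval 130 to 140 min), with peaks at 237 and 372 min in Ex5 and at 212 and 347 min in Ex4. With cosine and sine terms of that phase, 1.32% of all genes passed edgeR's test, and of the members 0 of 8 did; DESeq2 and limma-voom also called 0. Peak-to-trough folds of the members were 1.01 to 1.1. Dnajb1 was the 1 member with an unadjusted p under 0.05 (0.0162, adjusted p = 0.268), with a fold of 1.06 and a fitted peak 5.55 min after that of Hes7. Hspa5 had the largest fold, 1.1 (adjusted p = 0.59). With the period set to 180 min instead, Hspa5 (adjusted p = 0.0119), Hsph1 (0.00112), Hspa8 (0.0375) and Hsp90b1 (0.0375) passed the test.

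Around the fitted straight lines and waves, the ER members and Hspa8 varied most. The biological coefficient of variation was 9.73% for Hspa5, 7.24% for Hspa8 and 7.08% for Hsp90b1, at percentiles 98, 95.2 and 94.4 among genes of like level. Hsph1 had 5.1% (percentile 81), Hspe1 4.32% (62.5), Hspd1 4.27% (48.3), Hsp90aa1 3.99% (39.5) and Dnajb1 3.36% (8.58). Since the straight line leaves the bend in this spread, the members whose negative curvature passed the test are also those with the largest values.

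Within each experiment, the members were compared with each other over 16 libraries after removal of the linear slope. These are 28 pairs in each experiment and 56 tests in all, by permutation with 100000 resamples and Benjamini-Hochberg adjustment. The 16 libraries of an experiment share its culture, differ in depth and follow each other in time. The permutation treats them as exchangeable, so bends over time that genes share count as correlation. The p-values can therefore be too small. In Ex5, 17 of 28 pairs passed the test on Pearson's r, and in Ex4 4 of 28 did. The share of passing pairs among other genes was not computed, so these counts are not read as a trait of chaperones. With the squared time removed as well, 11 of 28 passed in Ex5 and 8 of 28 in Ex4.

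The pair of ER genes ran most closely together. Hspa5 and Hsp90b1 had r = 0.969 and rho = 0.959 in Ex5 (both permutation p = 1e-05, the smallest that the resamples can give, adjusted p = 0.00028) and r = 0.833 and rho = 0.859 in Ex4 (permutation p = 7e-05 and 5e-05, adjusted p = 0.000784 and 0.0007). Without the 2 libraries farthest from the median of Hspa5, r was 0.949 in Ex5 and 0.856 in Ex4. With squared time removed, r was 0.655 in Ex5 (permutation test, adjusted p = 0.028) and 0.826 in Ex4 (adjusted p = 0.0007).

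The cytosolic Hspa8 ran with the ER member Hspa5, with r = 0.89 and rho = 0.882 in Ex5 (permutation p = 1e-05 and 2e-05, adjusted p = 0.00028 and 0.000373) and r = 0.738 and rho = 0.744 in Ex4 (permutation p = 0.00075 and 0.00137, adjusted p = 0.0042 and 0.00959). Without the 2 farthest libraries r was 0.823 in Ex5 and 0.69 in Ex4. With squared time removed it was 0.902 in Ex5 (permutation test, adjusted p = 0.00056) and 0.433 in Ex4, where it no longer passed (adjusted p = 0.179).

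Hsp90aa1 ran with the mitochondrial Hspd1, with r = 0.864 and rho = 0.912 in Ex5 (permutation p = 2e-05 and 1e-05, adjusted p = 0.000373 and 0.00028) and r = 0.784 and rho = 0.691 in Ex4 (permutation p = 0.00031 and 0.0039, adjusted p = 0.00193 and 0.0182). Without the 2 farthest libraries r was 0.747 in Ex5 and 0.628 in Ex4. The fourth pair past the test in both experiments was Hsph1 with Hsp90b1, with r = 0.596 and rho = 0.526 in Ex5 (permutation p = 0.014 and 0.0384, adjusted p = 0.0392 and 0.0894) and r = 0.646 and rho = 0.6 in Ex4 (permutation p = 0.00679 and 0.0165, adjusted p = 0.0224 and 0.0487). Its r without the 2 farthest libraries was 0.266 in Ex5, so there it rests on those libraries, and 0.735 in Ex4.

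Genes of proteins that work together did not all pass the test. Hspd1 and Hspe1, which form the chaperonin ring and its lid, had r = 0.587 and rho = 0.45 in Ex5 (permutation p = 0.0177 and 0.0824, adjusted p = 0.0473 and 0.17), with r = 0.328 without the 2 farthest libraries, and r = 0.409 and rho = 0.306 in Ex4 (permutation p = 0.118 and 0.252, adjusted p = 0.207 and 0.381), with r = 0.0662 without the 2 farthest. Hspa8 and its exchange factor Hsph1 had r = 0.807 and rho = 0.762 in Ex5 (permutation p = 0.00013 and 0.00103, adjusted p = 0.00104 and 0.00824; r = 0.675 without the 2 farthest) and r = 0.209 and rho = 0.144 in Ex4 (permutation p = 0.441 and 0.595, adjusted p = 0.588 and 0.684; r = 0.221 without the 2 farthest). Whether these correlations differ between the experiments was not tested.

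**Figure D3:**
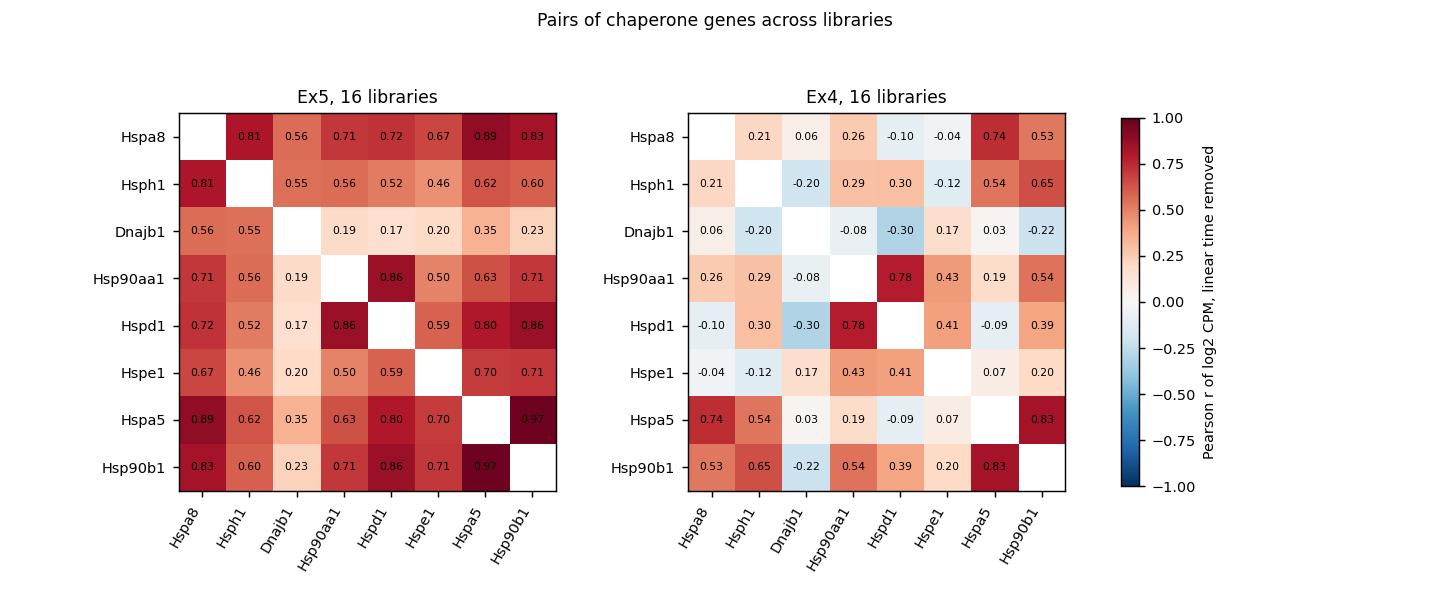
Pearson's r between the members' log2 CPM after removal of the linear slope, over the 16 libraries of Ex5 (left) and of Ex4 (right), with r in each cell. Hspa5 with Hsp90b1 had the highest r in both panels, 0.969 in Ex5 and 0.833 in Ex4.

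The genes of the whole table most like each member were ranked by the smaller of the Ex5 and Ex4 values of r, over 16 libraries each and as a description only. For Hspa5 the nearest was Calr, encoding the ER lectin chaperone calreticulin (r = 0.96 in Ex5 and 0.911 in Ex4), followed by Tpx2 (0.89 in Ex5 and 0.879 in Ex4) and Dnajb11, an ER J-domain partner of BiP (0.896 in Ex5 and 0.876 in Ex4). For Hsp90b1 the nearest was Hspa5 itself, then Hnrnph1 (0.924 in Ex5 and 0.826 in Ex4) and Brd7 (0.858 in Ex5 and 0.819 in Ex4). For Hsp90aa1 it was Pdia3, an ER disulfide isomerase (0.831 in Ex5 and 0.931 in Ex4), then Hnrnph2 and Hspd1.

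For Hspa8 the nearest were Dennd1a (0.785 in Ex5 and 0.768 in Ex4), Usp4 and Hspa5. For Hsph1 they were Cdh20 (0.824 in Ex5 and 0.741 in Ex4), Top1 and Hk2, and for Dnajb1 Lzic (0.685 in Ex5 and 0.736 in Ex4), Fam53a and Wnt3a. For Hspd1 they were Paip1 (0.874 in Ex5 and 0.92 in Ex4), Hnrnpk and Skp1a, and for Hspe1 Cox7b, a subunit of cytochrome c oxidase (0.814 in Ex5 and 0.875 in Ex4), Cnn3 and Bcas2.

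Wider lists of chaperones, members not included, were set beside the 10 genes. Genes counted as rising, falling, higher or lower are those past the test, and medians are over all tested genes of a list. Of 18 ER chaperones and folding enzymes tested, 11 passed the test with a negative curvature, as did 9.74% of all genes. The median was -0.09 over the list against -0.00097 over all genes. The 2 named by rule were Calr at -0.22 ± 0.0214 (SE; edgeR, adjusted p = 4.62e-09) and Sdf2l1, a cofactor of the ER folding machinery, at -0.24 ± 0.0372 (adjusted p = 2.3e-05). Over time, 9 of the 18 rose and 2 fell, where 26.8% of all genes rose and 26.6% fell. The median trend was 0.06 log2 per 100 min against -0.0016 over all genes. Sil1, the exchange factor of BiP, rose by 0.21 log2 per 100 min (adjusted p = 5.09e-07) as the mean of both experiments. Its slope was 0.32 ± 0.0582 higher in Ex5 than in Ex4 (edgeR, adjusted p = 0.000201), so most of that rise was in Ex5. The thiol oxidase Ero1l rose by 0.13 (adjusted p = 0.000222). Dnajb9, a J-domain partner of BiP, changed by -0.21 (adjusted p = 6.98e-05) and Dnajc10, an ER reductase, by -0.08 (adjusted p = 2.27e-05). The level was higher in Ex5 for 8 of the 18 and lower for 1, where 27.4% of all genes were higher and 27.7% lower. Ero1l was 0.42 log2 higher in Ex5 (adjusted p = 2.05e-11), and Sil1 was the 1 lower gene (-0.18, adjusted p = 0.000888).

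The median deviation of the ER list from each gene's mean was -0.22 log2 at 165 min, 0.17 at 270 min and -0.01 at 425 min in Ex5. In Ex4 it was -0.10 at 155 min, 0.05 at 260 min and -0.03 at 405 min. The list was therefore highest at 270 min in Ex5 and at 260 min in Ex4, and spread more widely in Ex5, as Hspa5 and Hsp90b1 did. The top in Ex4 was not distinct, with 0.0522 at 260 min, -0.0272 at 292 min and 0.0455 at 345 min. In Ex5, the library of 270 min was also the highest for the lists of cytosolic chaperones (0.0526) and of TRiC and prefoldin (0.095). It was not the highest for the mitochondrial and stress response lists.

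**Figure D4:**
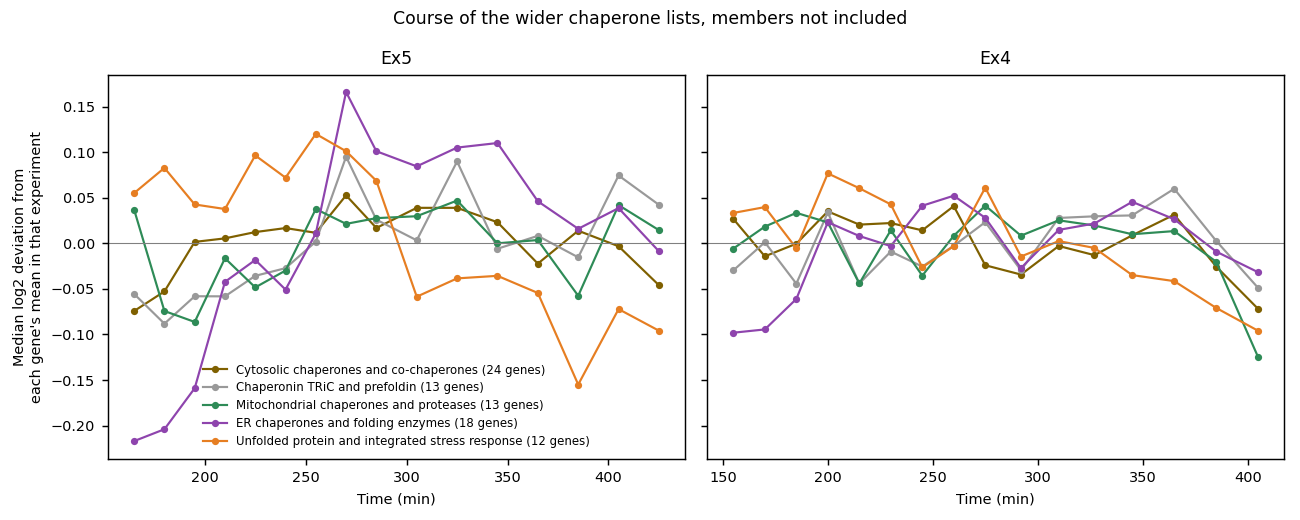
Median log2 deviation of each wider list from the genes' own means in that experiment, against time, in Ex5 (left) and Ex4 (right), with 1 point per library and without the 10 members. The ER list went from -0.22 at 165 min to 0.17 at 270 min in Ex5 and from -0.10 at 155 min to 0.05 at 260 min in Ex4.

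Sensors and effectors of the unfolded protein and integrated stress responses did not all follow the ER chaperones. Of 12 tested, 7 fell over time (median trend -0.09), 1 rose, and 3 passed the test with a negative curvature (median -0.03). The shares past the test over all genes were 26.6% falling, 26.8% rising and 9.74% with a negative curvature. Herpud1, which aids ER-associated degradation, had a trend of -0.21 (adjusted p = 7.17e-11) and Asns, asparagine synthetase, one of -0.14 (adjusted p = 3.9e-10). Ppp1r15a, a phosphatase subunit that reverses eIF2α phosphorylation, rose by 0.16 (adjusted p = 3.04e-05) and had a curvature of -0.16 (adjusted p = 0.000532). Xbp1, the transcription factor downstream of IRE1, had a curvature of -0.22 ± 0.0319 (adjusted p = 1.43e-05) and stood 0.49 log2 higher in Ex5 (adjusted p = 1.22e-10). In level, 6 of the 12 were higher in Ex5, where 27.4% of all genes were.

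Among 24 further cytosolic chaperones and co-chaperones tested, 9 fell, 7 rose (median trend 0.0016) and 7 passed the test with a negative curvature (median -0.04). Over all genes, 26.6% fell, 26.8% rose and 9.74% passed with a negative curvature. The testis-enriched HSP70 gene Hspa2 had a trend of -0.26 (adjusted p = 2.25e-07) and the HSP110 relative Hspa4l one of -0.19 (adjusted p = 6.75e-05). The HSP90 co-chaperones Cdc37, which recruits kinases, rose by 0.09 (adjusted p = 1e-05) and Dnajc7 by 0.08 (adjusted p = 5.27e-05). Dnaja1 had a curvature of -0.09 (adjusted p = 0.00165) and Ahsa1, the activator of the HSP90 ATPase, -0.08 (adjusted p = 0.00376). The HSP70 exchange factor Bag3 was 0.56 ± 0.0336 log2 higher in Ex5 (adjusted p = 3.92e-17), more than any member, and Chordc1 was lower in Ex5 (-0.08, adjusted p = 0.0343).

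The 3 genes tested next were the heat shock factors Hsf1 and Hsf2, and Hsbp1. The transcript of Hsf1 rose by 0.06 log2 per 100 min (adjusted p = 0.0169) and had a curvature of -0.07 (adjusted p = 0.0474). HSF1 protein and its activity were not measured. Hsbp1, which binds HSF1, was lower in Ex5 (-0.14, adjusted p = 0.000107) and had a curvature of -0.07 (adjusted p = 0.0414).

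Of 13 subunits of the cytosolic chaperonin TRiC and of prefoldin, 2 rose, where 26.8% of all genes did. These were Pfdn2 by 0.11 (adjusted p = 7.27e-06) and Cct3 by 0.05 (adjusted p = 0.00169), and the median trend of the list was 0.02. In level, Cct7 was 0.06 log2 higher in Ex5 (adjusted p = 0.00769) and Pfdn1 lower (-0.10, adjusted p = 0.00408). Pfdn6 (-0.09, adjusted p = 0.0267) and Pfdn4 (-0.07, adjusted p = 0.0264) had a negative curvature.

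Of 13 further mitochondrial chaperones and proteases tested, 3 rose and 5 fell over time (median trend 0.0175), where Hspd1 and Hspe1 passed in neither direction. Over all genes, 26.8% rose and 26.6% fell. Grpel2, an exchange factor of the mitochondrial HSP70, rose by 0.18 log2 per 100 min (adjusted p = 1.19e-10) and the protease Htra2 by 0.07 (adjusted p = 0.000342), while the J-domain protein Dnaja3 changed by -0.07 (adjusted p = 0.000118) and the protease Yme1l1 by -0.06 (adjusted p = 0.0191). In level, 6 of the 13 were lower in Ex5, as Hspe1 was, and 1 was higher, where 27.7% of all genes were lower and 27.4% higher. Htra2 was at -0.19 (adjusted p = 3.42e-08), and Trap1, the mitochondrial HSP90, was the higher one (0.08, adjusted p = 0.00107). A slope higher in Ex5 was found for 3 of these 13 genes, for 3 of the 13 TRiC and prefoldin genes and for 3 of the 18 ER genes, where 7.03% of all genes had one. A negative curvature passed the test for 2 of the mitochondrial genes, Dnajc19 (-0.12, adjusted p = 0.00689) and Trap1 (-0.06, adjusted p = 0.0166), and a positive one for 1.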

How the data were processed

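Per the labels' protocols, libraries were made from 200 ng of total RNA with a stranded mRNA kit. The authors deposited raw read counts per gene symbol, made with HTSeq 0.6.1 after HISAT2 2.1.0, with cutadapt 1.14 and bcl2fastq 2.17.1.14 also named and mm10 as the build, per the submitters' processing notes. No label or header names the annotation, the strand setting or the handling of multi-mapped reads, so overlapping and near-identical genes are uncertain. Columns matched sample descriptions, and 0 were left unused. Depth was 16.1 to 29.5 M counts.

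From the deposited counts, CPM used TMM factors (edgeR 4.0.16, R 4.3.3). Genes with at least 1 CPM in 16 libraries entered edgeR's quasi-likelihood test. Its terms were the level and slope of each experiment, with time zeroed at 285 min, and a cosine and a sine of the Hes7 phase common to Ex5 and Ex4. Benjamini-Hochberg adjustment ran over all 11772 genes at 0.05. Levels are Ex5 minus Ex4. The procedure was tested on simulated data. These were counts drawn independently around flat courses with planted changes, so they do not cover deviations that follow each other in time. Alternatives were other scalings, filters, models and periods, DESeq2 1.42.0, limma-voom (limma 3.58.1), fits to 1 experiment and fits without 1 library. Gene positions and shared 50-base windows come from GENCODE M21 on GRCm38.

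The members and lists were chosen with earlier results of these data known. All members are named. Of each list, the genes named passed the test, averaged 5 CPM or more and were the extremes: up to 2 in each direction of trend, 1 in each direction of level, and 2 in rhythm or curvature.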

Additional observations from a re-analysis of the deposited data

Results flagged for a closer look

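For 6 members the course over time differed between the experiments by edgeR's quasi-likelihood test of the difference itself, adjusted over all genes. These pool a test of slope and a test of curvature. Among all genes, 9.06% had a lower and 7.03% a higher slope in Ex5, and 1.1% had a curvature lower in Ex5. No share of all genes was computed for both tests together, so no more is read from the count of members. The slope in log2 per 100 min, Ex5 minus Ex4, differed by -0.188 for Hspa8 (adjusted p = 0.00598), by -0.153 for Hsph1 (adjusted p = 0.00177) and by 0.13 for Hspe1 (adjusted p = 0.00155). The curvature in log2 per (100 min) squared, Ex5 minus Ex4, differed by -0.178 for Hspa5 (adjusted p = 0.00111), by -0.161 for Hsp90b1 (adjusted p = 0.00525) and by -0.125 for Hspd1 (adjusted p = 0.0209). The test of the curvature difference was chosen after the data had been seen. Ex5 and Ex4 differ in their cultures, their sampled times and their PSM and pluripotency markers together, and which of these goes with the chaperone differences cannot be told apart.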

How the results depend on the processing

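Genes and members counted below are those past the test. The falling trends of Hspa8, Hsph1 and Dnajb1 and the negative curvature of Hspa5 kept direction and call under every alternative run. In Ex4 alone, counts over all genes were 3747 for trend (6280 in the full fit), 975 for curvature (2034) and 40 for rhythm (155), 1 member had a negative curvature (3 in the full fit) and 0 rose (1); Hsp90b1 had a curvature of -0.07 (adjusted p = 0.103) and Hspa8 of -0.07 (adjusted p = 0.0752). In Ex5 alone, 52 genes passed for rhythm, 5 members had a negative curvature and 2 rose. At the shared minutes, 2672 genes differed in level (6485 in the full fit) and 2 members were higher in Ex5 (4); the difference there was -0.0119 for Dnajb1, -0.0873 for Hspa8 and -0.194 for Hsph1. Without the time trend, 62 genes passed for rhythm, and at a period of 180 min 4 members did. With squared time in the model, 2919 genes differed in slope (1894 in the full fit) and 4 members had a higher slope in Ex5 (1); with a correction for GC content 2 did, and with log2 depth as a covariate 2 members rose. The last 2 settings were added after the data had been seen. The cause of these changes was not tested, except that 1 experiment or the shared minutes hold fewer libraries.

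Without 1 library each, 0 to 1 members rose, 1 to 2 had a higher slope in Ex5, 3 to 4 were higher in level in Ex5, 3 to 4 fell and 3 to 4 had a negative curvature. The trend of Hspa5 passed without Ex4 time point 1 or Ex5 time point 1, 2, 10 or 11, with adjusted p-values of 0.00751 to 0.235 over the 32 fits. The negative curvature of Hsph1 passed the test without the last library of Ex4 or of Ex5. The higher slope of Hspd1 in Ex5 passed it without the last library of Ex5. Member pairs past the test numbered 21, and 19 with squared time removed. Time points with the same number correlated by 0.0473 to 0.545 in their deviations from each experiment's mean, over 0.1 in 14 of 16 pairs. Time was not removed and same-numbered libraries lie at similar minutes, so these values cannot tell a pairing from a shared time course. No label ties same-numbered libraries to a shared day or batch, so the number was not used as a pairing. With the replicate block, 6052 genes differed in level and Dnajb1 lost its call (0.0375, adjusted p = 0.195). Depth limits Hspa1a and Hspa1b, at 6 and 4 counts in all.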
